A study of Rattus norvegicus with 12 samples.

Results

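The complement system in epididymal fat cells of stressed and unstressed rats was followed through 9 genes: C1qa, C1qb, C1qc, C2, C3, C3ar1, C5ar1, Cd55 and Cd59. A gene was taken when the name that the array gives a non-control probe was one of these 9, and every such probe was kept. The rule found 11 probes of 30367, with 2 probes each for C2 and Cd55 and 1 for each of the other 7 genes. All 9 genes are among the 17410 genes that could be tested. Cells came from male Fisher 344 rats, 6 after chronic unpredictable stress (CUS) and 6 controls, with 1 array per rat. For 35 days CUS rats met stressors in random order, 2 a day (swimming, rotation, isolation, food and water deprivation and changes of light among them), and control rats were handled every 2 days at weighing. The labels give no age, and they call the cells epididymal adipocytes in most fields and preadipocytes in the extraction text.

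Complement is a set of blood and tissue proteins that tag particles for removal and call in immune cells. In the classical pathway the C1q complex, built from A, B and C chains, binds its target and sets off proteases that cleave C4 and C2. The fragments form a convertase that cleaves C3, and products of C3 and C5 act on the receptors C3ar1 and C5ar1 of myeloid and other cells, while Cd55 and Cd59 on the cell surface restrain the cascade. Macrophages are the best known source of C1q in tissues, and fat cells are known for making factor D (Cfd, also called adipsin) and C3.

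Signals are log2 intensities relative to the 75th percentile of the probes of the same array, so that 0 is the signal of a fairly bright probe and 1 unit is a doubling. That percentile was an intensity of 541 to 627 on the CUS arrays and 229.6 to 399.8 on the control arrays, and 60.4 to 67.3% of probes per array were well above background. All CUS arrays lay on 1 slide and all control arrays on another, so stress and slide cannot be told apart in any difference given here. Control replicate 3, the array with the lowest percentile, was the lowest of the 12 arrays for 7 of the 11 probes and the highest for 2, and the difference of each member probe is therefore also given without it. The adipocyte label was borne out by bright Adipoq (log2 signal of 8.58 ± 0.14 in CUS rats and 8.41 ± 0.40 in controls, mean ± SD of 6 each) and Fabp4 (8.48 ± 0.11 and 8.10 ± 0.44). Lep (-0.16 in CUS and -0.93 in controls) and Plin1 (-0.63 and -0.03) were less bright. Of 10 adipocyte markers, 3 were higher and 2 lower in CUS, against 24.2% and 25.8% of all genes. RNA of other cells was also present. The summed signal of 6 red blood cell markers was 1719 to 2346 times the 75th percentile in CUS and 50.03 to 142.7 times in controls. In CUS 5 of 6 mast cell markers and 4 of 5 mesothelial markers were higher, against 24.2% of all genes. The other mesothelial marker, Wt1, did not pass (-0.36, limma adjusted p = 0.16) and was lower without control replicate 3 (-0.56, adjusted p = 0.0013). Of those mast cell markers, Ms4a2 and Fcer1a were well above background on no control array and Cpa3 on 1, so they entered the test through the CUS arrays. Endothelial markers were lower in CUS for 5 of 8 genes (8 of 8 without control replicate 3) and smooth muscle markers for 4 of 5 (5 of 5). Of all genes 25.8% were lower, and 30.4% without that array. The part of these cells in the differences below was not tested, and in a bulk sample fewer cells of a type and less RNA per cell cannot be told apart.

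Each probe is a run of 60 bases, and its start base on the transcript is given because probes of C2 and of Cd55 differed. Shown are the 4 member probes that were higher in CUS, with the dimmer C2 probe beside the brighter one. Genome positions come from the design annotation in the files (rat build rn4), and the start base is counted along the transcript.
C1qa, start base 697, chr5:155662578-155662637: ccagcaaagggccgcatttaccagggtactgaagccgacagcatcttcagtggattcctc
C1qc, start base 435, chr5:155656638-155656697: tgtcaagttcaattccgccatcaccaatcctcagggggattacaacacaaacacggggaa
C2, start base 2082, chr20:4071119-4071178: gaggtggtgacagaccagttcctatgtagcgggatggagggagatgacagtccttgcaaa
C2, start base 2198, chr20:4071504-4071563: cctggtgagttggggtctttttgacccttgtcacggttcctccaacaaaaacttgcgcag
Cd55, start base 825, chr13:43336846-43336905: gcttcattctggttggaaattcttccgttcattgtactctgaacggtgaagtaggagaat
C1qb is probed at chr5:155647530-155647589 (start base 1028), beside the other 2 chains on chromosome 5. The remaining probes lie at chr4:159326458-159326517 for C3ar1, chr3:89244707-89244766 for Cd59 and chr13:43322246-43322305 for the Cd55 probe at base 1776. The C3 probe was placed on unassigned sequence of that build, and the C5ar1 probe has no position in the files. Current RefSeq naming (GRCr8) gives the Cd59 probe to Cd59b. All 11 probes match a transcript and so lie in exons, and the coding limits of the transcripts are not given in the sources used here.

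Of the 9 genes, read from the brightest probe of each, C1qa, C1qc and C2 were higher in CUS (3 of 9, against 24.2% of all genes tested) and none was lower (against 25.8%). The test was limma at an adjusted p under 0.05 (Benjamini-Hochberg, over the 19728 probes tested). At an unadjusted p under 0.05, limma gave 5 genes higher and 0 lower, and the methods' t-test on the same values gave 2 higher and 0 lower after adjustment and 1 higher, C1qc, at its own 2-fold threshold without adjustment. By the methods' test after adjustment, 4838 of all 19728 tested probes were higher in CUS and 4620 lower. The shares of all genes at an unadjusted p and at the 2-fold threshold are not given here, so those member counts carry no comparison. All 9 differences were positive, with a median of 0.70 log2 beside -0.03 for all genes. The share of all genes with a positive difference is not given here. The median is the difference of C2 at base 2082, and the C2 probe brightest in controls differed by 0.33. With the normexp background correction the differences of C3 (-0.12) and C3ar1 (-0.34) were negative. Every CUS array exceeded every control array for 1 of the 9 genes, C1qc, where 10.4% of all genes did so. Without control replicate 3, 4 of the 9 were higher (C1qa, C1qc, C2 and Cd59), against 29.2% of all genes, and the median difference of the 9 was 0.51. These counts depend on how arrays are scaled. With scaling on 8 spike-in probes the median of all tested probes itself moved up by 0.81 log2, and all 9 genes were then higher in CUS and none lower, against 63.8% and 2.54% of all genes. Directions given for genes are those relative to the 75th percentile of the array.

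**Figure D1:**
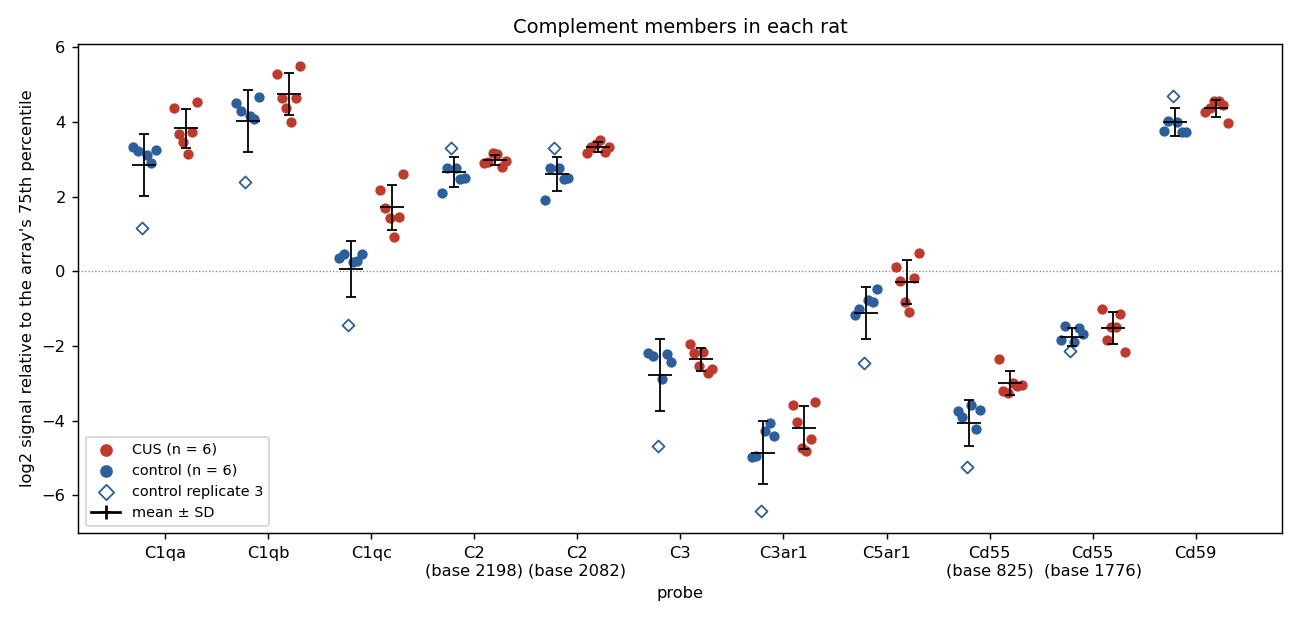
Log2 signal of the 11 member probes (horizontal axis) relative to the 75th percentile of each array (vertical axis), 1 point per rat, with mean ± SD of 6 rats per group in black. Control replicate 3, the open diamond, sits apart from the other controls for most probes, and the CUS and control points do not overlap for C1qc and for Cd55 at base 825.

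Of the chains of C1q, the molecule that starts the classical pathway, C1qa and C1qc were higher in CUS and C1qb did not pass the test. C1qa ranged from 3.15 to 4.54 over CUS rats, with a median of 3.70, and from 1.17 to 3.34 in controls, with a median of 3.17. The groups overlapped, with 3 controls above the lowest CUS rat, and the control at 1.17 was replicate 3. The mean was 3.83 ± 0.53 in CUS rats against 2.84 ± 0.83 in controls (SD, n = 6 each), a 1.99-fold difference (0.99 ± 0.36 log2, SE, limma adjusted p = 0.038). Without control replicate 3 the difference was 0.66 (adjusted p = 0.024). The call was lost with quantile normalization (0.86, adjusted p = 0.077), in the authors' value table (0.87, adjusted p = 0.076), by the methods' t-test (adjusted p = 0.065), with array quality weights (0.49, adjusted p = 0.062) and without any 1 of 5 other rats, CUS replicates 1, 2, 5 and 6 and control replicate 5 (adjusted p = 0.054 to 0.081).

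C1qc gave the clearest separation. CUS rats ranged from 0.92 to 2.61 with a median of 1.57, and controls from -1.45 to 0.46 with a median of 0.31, so that no control reached the lowest CUS rat. C1qc was 3.15-fold higher in CUS (1.65 ± 0.35 log2, SE, limma adjusted p = 0.0023), and 1.35 log2 higher without control replicate 3 (adjusted p = 6e-04). It passed the test without each of the 12 arrays in turn.

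C1qb ranged from 4.00 to 5.49 over CUS rats (median 4.64) and from 2.38 to 4.68 over controls (median 4.23). These ranges overlapped, and the difference of 0.72 ± 0.37 log2 (SE) did not pass the test (limma adjusted p = 0.12). It was 0.39 without control replicate 3 (adjusted p = 0.18). With the replicate number as a block in the fit, C1qb passed (limma adjusted p = 0.039). For all 3 chains the brightest CUS rats were replicates 6 and 1 and the dimmest was replicate 4.

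The chains rose and fell together from rat to rat within the groups. Over 12 arrays, deviations from the group means of C1qa and C1qb correlated with Pearson's r = 0.99 and Spearman's rho = 0.97 (permutation p = 2e-05 and 8e-05, adjusted over 3 pairs 6e-05 and 0.00013). For C1qa and C1qc, r was 0.98 and rho 0.97 (permutation p = 0.00019 and 0.00056, adjusted 0.00019 and 0.00056). For C1qb and C1qc, r was 0.98 and rho 0.98 (permutation p = 0.00012 and 9e-05, adjusted 0.00018 and 0.00013). Without CUS replicate 4 and control replicate 3, the 2 arrays farthest from the median, r was 0.96, 0.93 and 0.92 in the same order. The relation therefore did not rest on these arrays. The permutation test asks only whether there is any relation, and how many other pairs of genes correlate as closely was not counted. Genes outside complement, such as Ndn (0.99) and Pla2g2d (0.98), correlated as closely with the mean of the chains. An r this high is therefore not particular to C1q.

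Between the groups the chains differed by unequal amounts. The difference C1qb minus C1qc within an array, which a scaling of the whole array cannot move, was 2.88 to 3.19 log2 in CUS and 3.82 to 4.21 in controls, with no overlap. Its mean was lower in CUS and fell by 0.93, from 3.96 ± 0.18 to 3.03 ± 0.11 (SD, n = 6 each, exact permutation p = 0.0022, adjusted 0.0043). C1qa minus C1qc fell by 0.66 and C1qa minus C1qb was higher by 0.27, each again with no overlap and the same exact permutation p of 0.0022 (adjusted 0.0043), two-sided, the smallest that 6 against 6 arrays can give. The 3 differences are not independent, since each follows from the others. How many other pairs of genes separate as fully was not counted, and 24.2% of all genes were higher and 25.8% lower in CUS. The 3 shifts had the same direction and passed with quantile normalization, with normexp, in the authors' value table, with outlier spots kept and without each array in turn, and leaving out 1 array moved them to -0.97 to -0.88, -0.70 to -0.62 and 0.22 to 0.30. In order of the start base of the probe on its transcript, the CUS difference was largest for C1qc (base 435), then C1qa (697), then C1qb (1028). These are different transcripts whose lengths are not given here, so the start bases are not on a common scale, and this order was not tested.

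**Figure D2:**
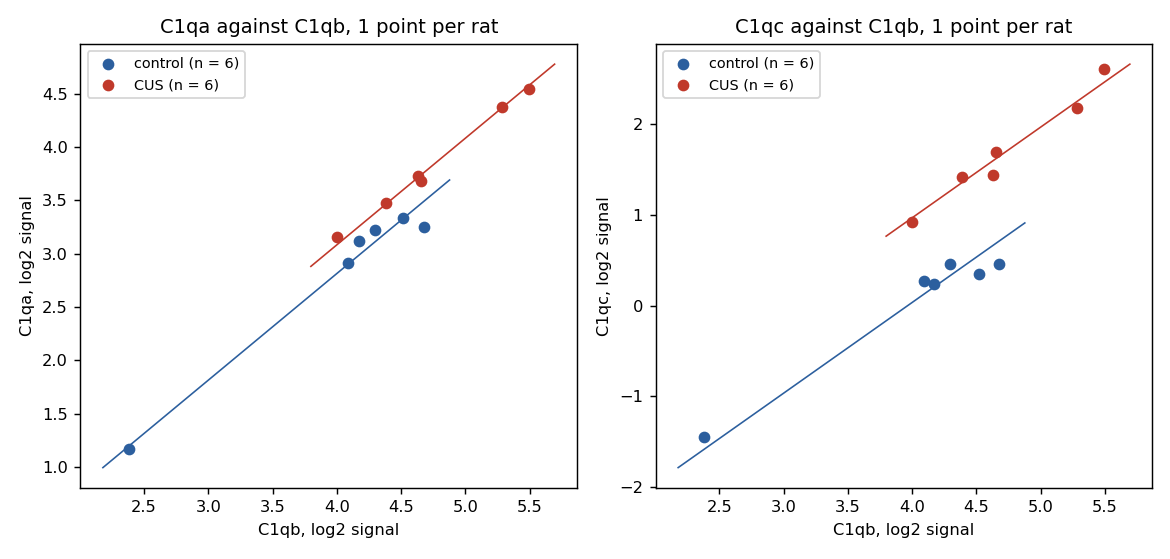
Log2 signal of C1qa (left) and C1qc (right) against that of C1qb, 1 point per rat, 6 per group. The lines have a slope of 1 and pass through each group's mean. CUS and control rats lie on separate lines, farther apart for C1qc (0.93 log2) than for C1qa (0.27 log2).

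The genes most like the mean of the 3 chains, by Pearson's r of deviations from the group means over 12 arrays among 14989 genes well above background on every array, were Fcmr (0.99), Ndn (0.99), Fcna (0.99), Syndig1 (0.99) and Pla2g2d (0.98). Without control replicate 3 these r were 0.97 to 0.99 for Fcmr, Ndn, Fcna and Syndig1 and 0.96 for Pla2g2d. Fcmr (1.34 log2, limma adjusted p = 0.015), Fcna (1.55, adjusted p = 0.0078) and Syndig1 (0.73, adjusted p = 0.049) were higher in CUS. Ndn (-0.01, adjusted p = 0.97) and Pla2g2d (0.19, adjusted p = 0.64) did not pass the test.

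C2, the protease part of the classical convertase, was higher in CUS by the probe at base 2082 and did not pass the test by that at base 2198. The probe at 2082 was the brighter one in CUS (3.32 against 2.98) and not in controls (2.62 against 2.65), so the CUS arrays decided which probe stands for the gene. Picked by the control arrays alone, a choice made after seeing the data, C2 did not pass and 2 of the 9 members were higher. At base 2082 CUS rats ranged narrowly, from 3.16 to 3.52 with a median of 3.32, and controls from 1.90 to 3.29 with a median of 2.63. The highest control was replicate 3, the only control inside the CUS range. C2 was 1.63-fold higher (0.70 ± 0.18 log2, SE, limma adjusted p = 0.0071), and 0.84 log2 higher without control replicate 3 (adjusted p = 0.00046), when the groups no longer overlapped. The probe at base 2198 gave 2.80 to 3.18 in CUS and 2.10 to 3.30 in controls, a difference of 0.33 ± 0.17 (SE, limma adjusted p = 0.12), or 0.46 without control replicate 3 (adjusted p = 0.0078).

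Both C2 probes lie on 1 transcript, 116 bases apart, and did not move equally. The probe at 2082 had 1 spot per array and that at 2198 had 2. The probe at 2082 minus that at 2198 was 0.34 ± 0.08 in CUS rats against -0.04 ± 0.08 in controls (SD, n = 6 each). This is a difference of 0.37 with no overlap between groups (exact permutation p = 0.0022, adjusted over 2 genes 0.0043). Among 1679 pairs of tested probes of a transcript at least 60 bases apart, the upstream probe had the more positive CUS difference in 63.4%, with a median of 0.11 log2. The share was 64.3% for the 311 pairs up to 300 bases apart, as the C2 probes are, with a median of 0.08 and an upper quartile of 0.20, which the 0.37 of C2 exceeded. It was 71.4% (median 0.17) for 539 pairs more than 300 and up to 1000 bases apart, as the Cd55 probes are, and 57.8% (median 0.08) for pairs farther apart. The part of probe position in the shifts between the C1q chains was not tested.

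C3, where all pathways of complement meet, did not pass the test. CUS rats ranged from -2.72 to -1.96 (median -2.36) and controls from -4.68 to -2.18 (median -2.35). The lowest value was control replicate 3, where the probe was not well above background. The difference of 0.41 ± 0.37 log2 (SE, limma adjusted p = 0.37) rested on that rat and was 0.03 without it (adjusted p = 0.88). C3 minus C2 within an array differed by -0.29 (exact permutation p = 0.69, adjusted 0.69), and by -0.80 without control replicate 3 (exact permutation, adjusted p = 0.026). Here C2 was read at base 2082, the probe picked by the CUS arrays. Without control replicate 3, C2 differed by 0.84 at base 2082 and by 0.46 at base 2198. C3 minus C2 at base 2198 was not tested. The genes most like C3 by the same measure were Shroom2 (0.95), Sulf1 (0.94), Pdlim5 (0.94), Prim1 (0.94) and Pfn2 (0.94), falling to 0.73 to 0.84 without control replicate 3.

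Neither receptor of the small fragments of C3 and C5 passed the test. C5ar1, the C5a receptor of neutrophils and macrophages, ranged from -1.10 to 0.49 in CUS (median -0.23) and from -2.46 to -0.47 in controls (median -0.92). The groups overlapped, with CUS replicates 6 and 1 highest and control replicate 3 lowest. The difference was 0.82 ± 0.34 log2 (SE, limma adjusted p = 0.059), and 0.55 without control replicate 3 (adjusted p = 0.081). C5ar1 passed with the replicate number as a block in the fit.

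C3ar1, the C3a receptor, was a dim probe. It ranged from -4.82 to -3.49 in CUS (median -4.26) and from -6.43 to -4.06 in controls (median -4.69), and was well above background on 6 CUS and 5 control arrays. Its difference was 0.67 ± 0.38 log2 (SE, limma adjusted p = 0.16), and 0.35 without control replicate 3 (adjusted p = 0.28). The call of this dim probe depended on the processing. With quantile normalization it was higher (1.16, adjusted p = 0.046), the authors' value table gave 1.16 (adjusted p = 0.051) and median scaling 0.94 (adjusted p = 0.046), while with the normexp background correction it was lower (-0.34, adjusted p = 0.014). C3ar1 minus C5ar1 within an array differed by -0.15 between groups (exact permutation p = 0.35, adjusted 0.52), and by -0.91 with normexp (adjusted p = 0.0043).

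Of the inhibitors on the cell surface, Cd55 was higher by its dimmer probe alone and Cd59 did not pass the test. Cd55, which takes convertases apart, was 2.11-fold higher in CUS at base 825, where CUS rats ranged from -3.25 to -2.36 (median -3.06) and controls from -5.24 to -3.58 (median -3.82). No values overlapped (1.08 ± 0.26 log2, SE, limma adjusted p = 0.0047), nor without control replicate 3 (0.84, adjusted p = 0.00091). This probe was dim and not well above background on 1 control array, and with normexp the difference was -0.01 (adjusted p = 0.95). It had 1 spot per array, where the probe at base 1776 had 2. The brighter Cd55 probe at base 1776 ranged from -2.17 to -1.01 in CUS (median -1.49) and from -2.13 to -1.48 in controls (median -1.77). Its groups overlapped, with a difference of 0.23 ± 0.19 (SE, limma adjusted p = 0.32). It was 0.16 without control replicate 3 (adjusted p = 0.49). Within an array the signal at base 825 minus that at base 1776, 951 bases downstream, was -1.46 ± 0.37 in CUS rats against -2.31 ± 0.54 in controls (SD, n = 6 each), a difference of 0.85 (exact permutation p = 0.011, adjusted 0.011).

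Cd59, which blocks the assembly of the membrane attack complex, ranged from 3.97 to 4.56 in CUS (median 4.41) and from 3.73 to 4.71 in controls (median 3.88). Control replicate 3 was the highest of all 12 rats. The difference was 0.37 ± 0.17 log2 (SE, limma adjusted p = 0.085), and 0.51 without control replicate 3 (adjusted p = 0.0028). Cd59 also passed with the replicate number as a block in the fit. Cd55 at base 1776 minus Cd59 within an array differed by -0.14 between the groups (exact permutation p = 0.63, adjusted 0.69).

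**Figure D3:**
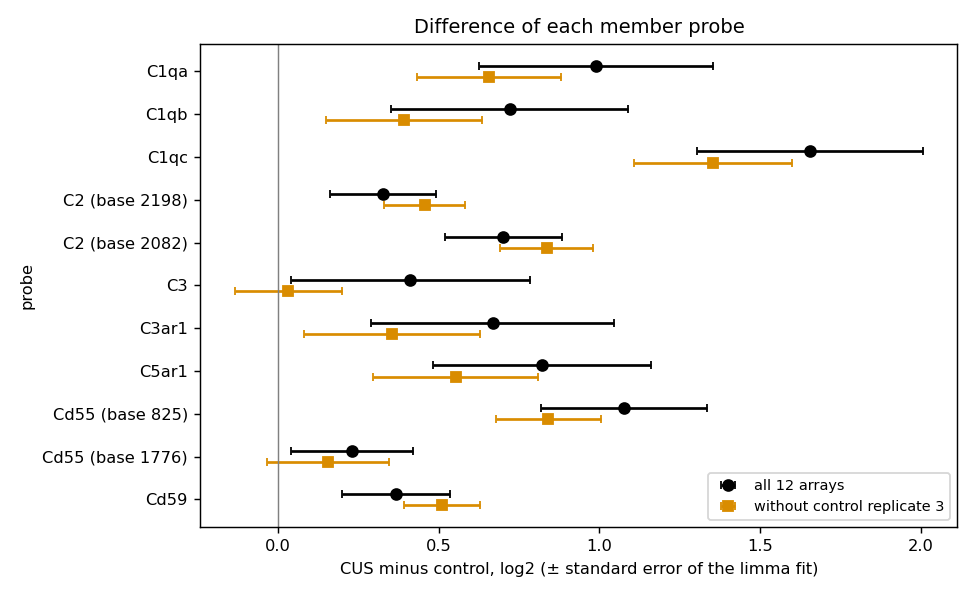
CUS minus control difference (horizontal axis, log2, ± SE of the limma fit) of each member probe (vertical axis) with all 12 arrays (circles) and without control replicate 3 (squares). All circles lie above 0, and leaving the array out moved C3 from 0.41 to 0.03 and C1qc from 1.65 to 1.35.

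Among 45 further complement genes, 41 had a probe, 28 could be tested, and 12 had no probe well above background on any array, among them the mannose-binding lectins Mbl1 and Mbl2 and the C9 component of the attack complex. Of the 28, 5 were higher in CUS (17.9%, against 24.2% of all genes), 7 lower (25.0%, against 25.8%) and 16 did not pass the test, with a median difference of -0.13 log2. Without control replicate 3, 6 were higher and 10 lower, against 29.2% and 30.4% of all genes. With the spike-ins 15 were higher and 0 lower, against 63.8% and 2.54% of all genes.

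The 5 higher genes included both measured ficolins, sugar-binding starters of the lectin pathway. Fcna, whose probe the array names Fcn1, ranged from 0.52 to 1.90 in CUS rats and from -2.37 to 0.32 in controls, with no overlap (1.55 ± 0.41 log2, SE, limma adjusted p = 0.0078, and 1.16 without control replicate 3). Fcnb ranged from -1.64 to -0.23 and from -4.12 to -1.54 (1.18 ± 0.42, adjusted p = 0.032, and 0.79 without control replicate 3). C4bpa, a chain of the soluble C4b-binding protein, ranged from -0.70 to 0.02 in CUS rats and from -1.67 to -0.88 in controls, again with no overlap (1.01 ± 0.16, adjusted p = 0.00031). The other chain, C4bpb, did not pass the test (-0.43 ± 0.27, limma adjusted p = 0.21). C1qbp, a mitochondrial protein that also binds C1q, was 0.52 ± 0.14 higher (adjusted p = 0.0085), and C8g, a small subunit of C8, 0.42 ± 0.15 (adjusted p = 0.033).

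The 7 lower genes included Cd93 (-1.39 ± 0.37 log2, SE, limma adjusted p = 0.0081), a membrane protein of endothelial and myeloid cells, and Itgb2 (-0.79 ± 0.25, adjusted p = 0.019), the beta chain of complement receptor 3. Beside Cd93, the endothelial markers Pecam1 (-1.46, adjusted p = 0.0056) and Vwf (-1.54, adjusted p = 0.0016) were lower, the 8 markers summed to 20.0 to 40.3 times the 75th percentile in CUS and 19.2 to 84.3 times in controls (lowest in replicate 3, next 53.5), and their part in the difference was not tested. The partner of Itgb2, Itgam, did not pass (-0.32 ± 0.15, adjusted p = 0.095). The membrane-bound regulator Cd46 was lower by -0.81 ± 0.15 (adjusted p = 0.0011), and Susd4 by -1.42 ± 0.36 (adjusted p = 0.0062). Cd46 was dim, with a mean of -4.56 in CUS and -3.74 in controls. Mbl1 and Mbl2, well above background on no array, differed by similar amounts (-0.85 and -0.83). The part of the background level in the Cd46 difference was not tested. Of the arrays, 5 control and 1 CUS measured Susd4 well above background, so it entered the test through the controls and its CUS level is near background. Cfd ranged from 9.22 to 9.52 in CUS rats and from 9.43 to 10.41 in controls, a difference of -0.39 ± 0.14 (adjusted p = 0.038), and -0.26 without control replicate 3 (adjusted p = 0.027). Clu, a soluble inhibitor, was lower by -0.28 ± 0.10 (adjusted p = 0.039). Masp1, a lectin pathway protease, was lower at its brightest probe (-0.45 ± 0.13, adjusted p = 0.010) and higher at a dimmer one at base 469 (1.13, adjusted p = 0.0028) that was well above background on 1 control array.

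The proteases that act with C1q did not pass the test. C1r differed by -0.12 ± 0.20 log2 (SE, limma adjusted p = 0.63) and C1s by -0.18 ± 0.32 (adjusted p = 0.66), and without control replicate 3 C1s was lower (-0.49, adjusted p = 0.030). C4a, whose probe the array names C4b, a near-identical gene, differed by 0.05 ± 0.11 (adjusted p = 0.70). In the alternative pathway, factor B (Cfb, -0.12 ± 0.11, adjusted p = 0.38) and properdin (Cfp, -0.15 ± 0.23, adjusted p = 0.61) did not pass. In the terminal pathway, C6 (0.34 ± 0.22, adjusted p = 0.21) and C7 (-0.97 ± 0.41, adjusted p = 0.062) did not pass, and both did without control replicate 3 (0.51, adjusted p = 0.017, and -1.36, adjusted p = 0.00047).

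**Figure D4:**
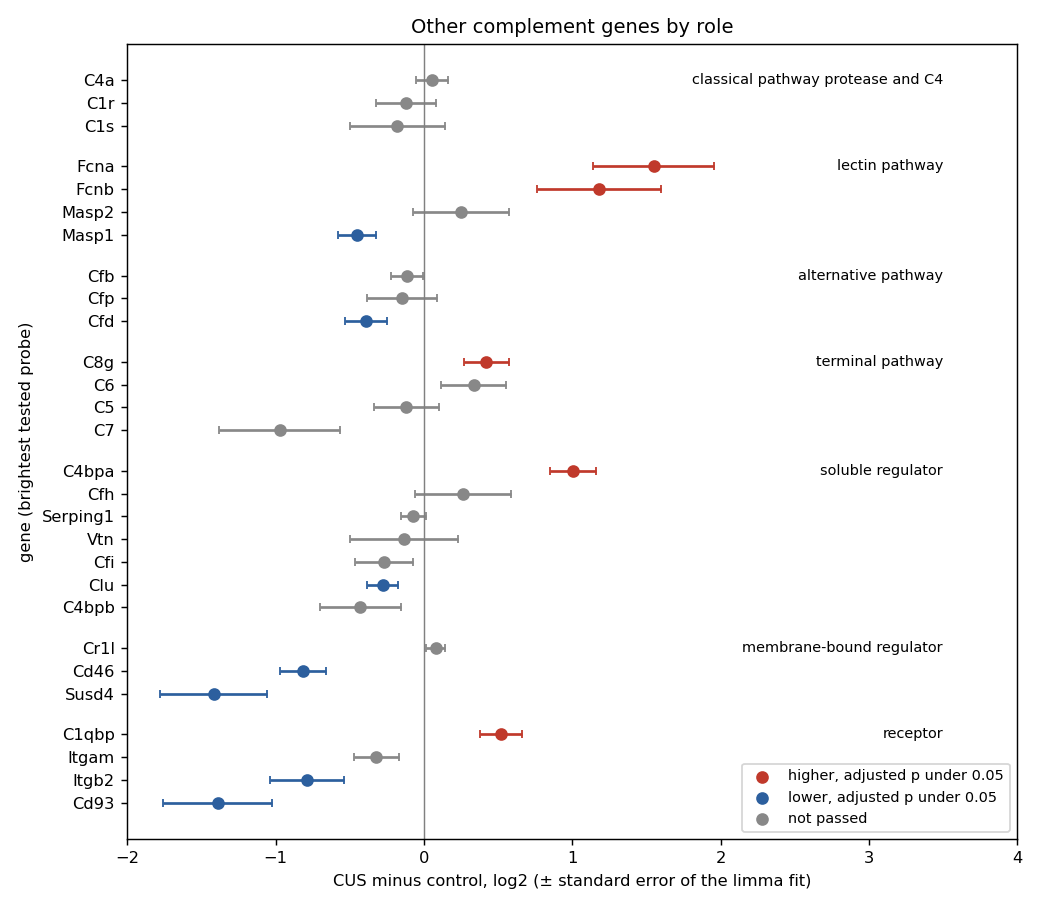
CUS minus control difference (horizontal axis, log2, ± SE of the limma fit) of the 28 tested further complement genes, grouped by role. Colours mark the 5 genes higher and the 7 lower at an adjusted p under 0.05 (15 and 0 with spike-in scaling), with Fcna, Fcnb and C4bpa at the upper end. Susd4 was near background in CUS.

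Macrophage markers were measured beside C1q and the receptors. Of 13 markers listed, 12 were tested and Marco was on no array well above background. In CUS 2 were higher (against 24.2% of all genes) and 3 lower (against 25.8%). The higher were Csf1r (1.25 log2, limma adjusted p = 0.00048) and Cd14 (0.42, adjusted p = 0.027), and the lower Aif1 (-0.85, adjusted p = 0.019), Ptprc (-0.89, adjusted p = 0.031) and Lyz2 (-0.66, adjusted p = 0.035), these 5 being named after their values were seen. The 2 probes of Csf1r went opposite ways. That at base 2663, brighter over all arrays, gave the higher call, while that at base 1349 was lower (-1.25, adjusted p = 6.8e-06) and was the brighter one in controls (-1.51 against -1.94), so the call of Csf1r depends on the arrays that pick its probe. Without control replicate 3, 2 markers were higher and 6 lower, Cd68 among them (-0.74, adjusted p = 0.011). The shares of all genes were then 29.2% higher and 30.4% lower. The second probes of Aif1 (-0.14, adjusted p = 0.62) and Ptprc (-0.12, adjusted p = 0.82) did not pass. Cd68 (-0.56, adjusted p = 0.086), Cd163 (0.62, adjusted p = 0.22) and Mrc1 (0.31, adjusted p = 0.34) did not pass. The summed signal of the list was 85.4 to 152.8 times the 75th percentile in CUS and 109.3 to 234.8 in controls, where the lowest was control replicate 3 and the next 154.3.

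The mean log2 signal of the 12 macrophage markers was 0.95 to 1.86 in CUS and 0.59 to 1.82 in controls, a difference of -0.07. Relative to that mean in the same array, C1qc was -0.03 to 0.92 in CUS and -2.04 to -1.07 in controls. C1qa was 2.21 to 2.85 and 0.58 to 1.90 by the same measure. Neither overlapped between the groups, while C1qb (3.05 to 3.80 and 1.79 to 3.11) did by a little. C5ar1 (-2.05 to -1.20 in CUS and -3.05 to -2.04 in controls) barely overlapped, and C3ar1 (-5.80 to -5.18 and -7.02 to -5.85) did not overlap. These ranges were computed after the values were known and carry no test. How many of all genes separate by this measure was not counted, so the lack of overlap is not a result about these genes. The marker mean was lowest in control replicate 3 and takes Csf1r from its probe at base 2663. A change per macrophage was not tested. Of the 4 tested neutrophil markers, S100a9 and Mpo were higher in CUS and Camp lower, with a summed signal of 1.14 to 1.72 in CUS and 0.64 to 1.13 in controls, and the defining Csf3r was on no array well above background.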

How the data were processed

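Total RNA of epididymal adipocytes was hybridised to 1-colour Agilent arrays (12 arrays, 62976 spots each). The authors deposited spot intensities from Agilent Feature Extraction 10.7.3.1, which, per the file headers, had subtracted background and had not normalized between arrays. A table of linear intensities, also deposited by the authors, had the same median in every array (46.7), followed the scanner signals and was used as an alternative. Outlier spots were left out, spots of a probe averaged, and log2 intensities of the deposited signals expressed relative to the 75th percentile of each array. A probe was tested when 6 or more of the 12 arrays measured it well above background (19728 of 30367), by limma 3.58.1 (R 4.3.3), two-sided, with p-values adjusted by Benjamini-Hochberg. A gene was read from its brightest tested probe. Differences within an array were compared by exact permutation over 924 assignments and adjusted over 6 pairs, and correlations by 100000 permutations within groups (SciPy 1.17.1). Probes were named by accession (17514), symbol (2669), synonym (689) or the name in the file (9495). The fit was tested on simulated data. The number of arrays limits the precision.

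The members, the lists of further complement genes and of cell markers and the tests were chosen with earlier results of these data known. Named are all members, the further complement genes that passed the test, alternative and terminal pathway genes measured on all arrays, the first markers of a list, and the 5 genes most like C1q and C3. Alternatives were other scalings, background correction, filters, variance models, the methods' t-test, a replicate block and leaving out each array. No probe of a member was saturated. Groups were taken from the titles and descriptions of the samples.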

Additional observations from a re-analysis of the deposited data

Results flagged for a closer look

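In 34 groups of 6 arrays tested by Dixon's criterion at the 95% level, 7 held an array far from the others, and 6 of these were control replicate 3. Chance flags about 1 in 20 independent groups. These groups share the same 12 arrays and the C1q chains vary together, so the flags are not independent. For C1qa, control replicate 3 was at 1.17 log2, below the other controls. It was at 2.38 for C1qb, at -1.45 for C1qc, at -4.68 for C3 and at -2.46 for C5ar1, again the lowest control each time. For Cd59 it was the highest control, at 4.71. The array had the lowest 75th percentile (an intensity of 229.6), and the part of this in its values was not tested. For the Cd55 probe at base 825, CUS replicate 1 was at -2.36, above the other CUS arrays.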

How the results depend on the processing

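Of the 9 members, 3 were higher in CUS, but 8 with median scaling, 9 with no scaling between arrays, 9 with spike-in scaling, 5 with normexp and 6 with the replicate number as a block (C1qb, C5ar1 and Cd59 beside the 3). None was lower except 1, C3ar1, with normexp, and leaving out 1 array gave 2 to 4 higher (2 without CUS replicate 1, 2 or 5 or control replicate 5) and 0 lower. Of the further complement genes, 5 were higher, but 8 with median scaling, 18 with no scaling, 15 with spike-ins and 3 to 6 without 1 array (3 on leaving out CUS replicate 2 or 6 or control replicate 5). There were 7 lower, but 3 with quantile normalization, 3 with median scaling, 0 with no scaling or spike-ins, 11 with normexp, 4 with the authors' value table, 18 with no filter on dim probes, 13 with array quality weights and 5 to 10 without 1 array. With the probe of a gene picked by the control arrays (chosen after seeing the data), the counts were 2, 0, 5 and 7. The median of all probes moved by 0.25 with median scaling, 0.76 with no scaling and 0.81 with spike-ins, and by -0.18 with normexp and -0.35 with no filter. Calls among the 19728 tested probes moved too, from 4872 higher and 5000 lower. Higher were 8637 with median scaling, 13388 with no scaling, 12643 with spike-ins, 4441 with normexp and 4970 with the block. Lower were 2800 with median scaling, 731 with no scaling, 477 with spike-ins and 8863 with normexp. Quantile normalization gave 3896 lower, the authors' values 3870, array weights 6636 and no filter 12855 of 30367. The gene counts above were not tested against these. With normexp, the differences turned to -0.0073 for the Cd55 probe at base 825, -0.12 for C3 and -0.34 for C3ar1, C3 minus C2 was -0.86 and C3ar1 minus C5ar1 -0.91. Quantile normalization turned C3 minus C2 to 0.016, C3ar1 minus C5ar1 to 0.31 and Cd55 minus Cd59 to 0.061, and the authors' value table the last 2 to 0.30 and 0.060, none passing. C3 minus C2, with C2 read at base 2082, ranged from -0.80 to -0.027 without 1 array, and passed without control replicate 3. Causes were not tested. Replicate numbers were not taken to pair rats, since no label ties them to a litter, batch or day. Deviations of same-numbered arrays correlated at -0.19 to 0.43, and 3 of 12 arrays correlated best with their own number. The block raised the calls from 9872 to 10333 probes. The C3ar1 probe and the Cd55 probe at base 825 were dim. These probes and that of C3 were each not well above background on 1 control array, which limits their values.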
